A study of Mus musculus with 9 samples.

Results

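Keratins are the intermediate filament proteins of epithelial cells, and 41 of the 25697 probes on the array carried a keratin symbol. They were chosen by name alone, as every probe whose array symbol is *Krt* followed by a digit, with the keratin-associated proteins (*Krtap*) left out. The 41 probes stood for 36 of the 18120 symbols on the array, and 4 of these genes had more than 1 probe. Current gene names are used here, since 25 of the 41 probes were listed under another symbol, such as *Krt1-18* for *Krt18*, *Krt2-8* for *Krt8* and *Krt1-23* for *Krt23*.

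Expression was measured in E10.5 CD-1 mouse embryos, an age in midgestation when the otic vesicle (OV), the epithelial sac that forms the inner ear, has closed. The 3 tissue groups were pooled microdissected OVs, pooled periotic tissue, which is the surrounding mesenchyme together with hindbrain, and whole embryos from which the otic region had been removed (embryo-minus-otic). All 3 groups came from the same strain and age with no genetic change or treatment, and each was hybridized as 3 pools of total RNA on 1-colour Illumina MouseRef-8 v2.0 arrays. The deposited intensities are given here as log2 values after quantile normalization over the 9 arrays. Differences were tested with limma in 1 model of the 3 groups, and a difference was called where *q*, adjusted by Benjamini-Hochberg over all probes, was under 0.05. A detection p-value under 0.01, the rank of a signal among that array's negative control beads, marked a probe as above background, or detected, on that array. The 3 comparisons share arrays and are not independent of each other. The study dissected separate litters, but the labels do not tie the replicates to them, so *q*-values measure only the spread between these pools.

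Keratin filaments are built from pairs of an acidic (type I) and a basic (type II) keratin, and neither kind assembles without the other. *Krt8* and *Krt18* form the pair of simple, single-layered epithelia, which *Krt7* and *Krt19* can join. *Krt5* pairs with *Krt14* and *Krt15* in the basal layer of stratified epithelia, *Krt1* pairs with *Krt10* in the layers above it, and a further group builds hair and nail. All 22 type II probes belong to genes on chromosome 15. Of the 19 type I probes, 18 belong to genes on chromosome 11, and the exception is *Krt18*, which lies on chromosome 15 beside its partner *Krt8*.

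Most keratins were not above background in any of these tissues. Of the 41 probes, 8 were detected in every pool of a group or more, or 19.5%, against 46.1% of all probes on the array. The OV had 6 of them (*Krt7*, *Krt8*, *Krt10*, *Krt18*, *Krt19* and *Krt23*). Periotic tissue had 5 (*Krt7*, *Krt8*, *Krt10*, *Krt15* and *Krt18*), and embryo-minus-otic tissue had 5 (*Krt7*, *Krt8*, *Krt10*, *Krt14* and *Krt18*). *Krt7*, *Krt8*, *Krt10* and *Krt18* were thus above background on every array, while 31 of the 41 probes were above background on none. By class, 4 of the 5 probes for keratins of simple epithelium were above background in a group, as were 3 of the 15 for stratified epithelium, 0 of the 17 for hair and nail, and 1 of the 4 others, *Krt23*. By type, 6 of the 19 type I probes and 2 of the 22 type II probes were above background in a group, the latter being *Krt7* and *Krt8*. A probe that is not above background shows only that its signal could not be told from the negative controls.

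**Figure D1:**
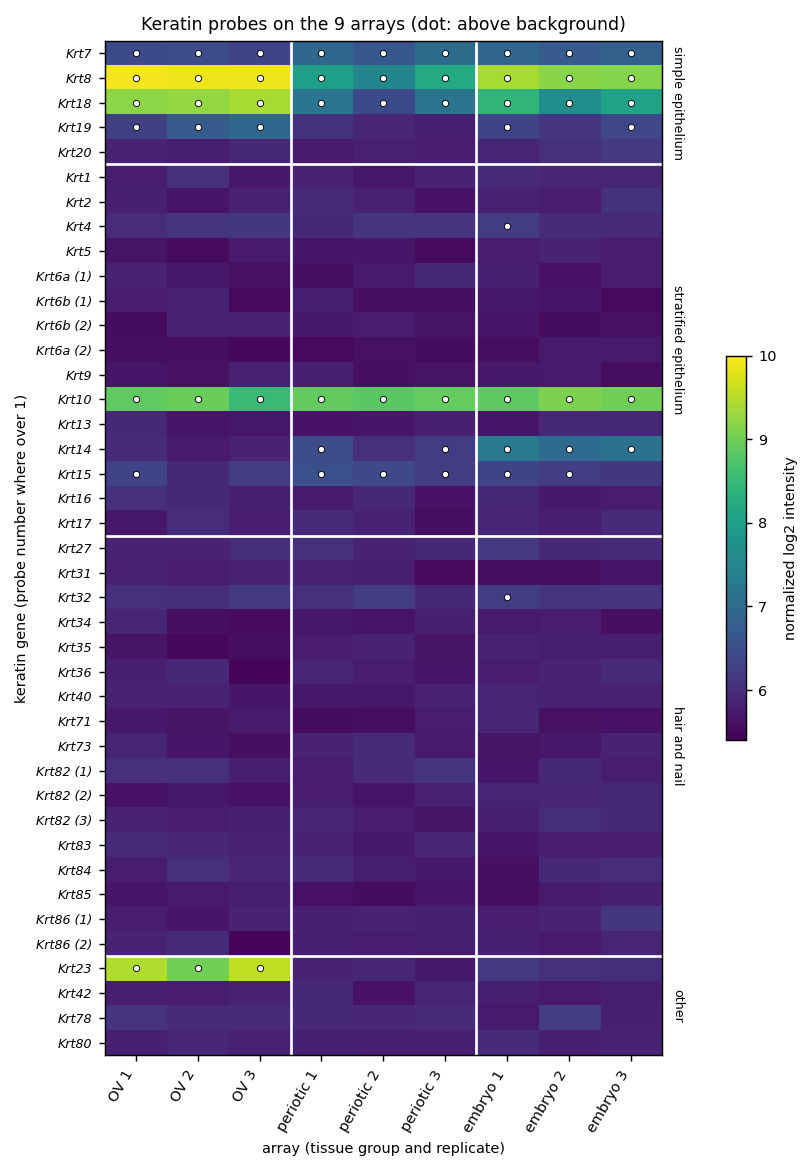
Normalized log2 intensity (colour) of the 41 keratin probes (rows, by class) on the 9 arrays (columns, by tissue group), where a white dot marks a detected value (detection p-value under 0.01). 8 probes have dots in all 3 pools of a group, *Krt23* is bright on the OV arrays alone, and the hair and nail rows stay dark but for 1 dot at *Krt32*.

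In OV against embryo-minus-otic tissue, 3 of the 41 keratin probes were higher (*Krt8*, *Krt18* and *Krt23*), where 5.89% of all probes were higher. In the same comparison 2 were lower (*Krt7* and *Krt14*), where 5.51% of all probes were lower. Against periotic tissue 4 were higher in OV (*Krt8*, *Krt18*, *Krt19* and *Krt23*) and 2 were lower (*Krt7* and *Krt14*), where 5.07% of all probes were higher and 5.15% lower. Between the non-otic groups, 0 keratin probes were higher in periotic tissue and 3 were lower (*Krt8*, *Krt14* and *Krt18*), where 2.86% and 2.95% of all probes were. As shares of the 41 probes these were 7.32% and 4.88%, 9.76% and 4.88%, and 0% and 7.32%, a few probes each. The set as a whole thus stood near the background of the array. All calls were among the 8 probes detected in every pool of a group or more, and 0 of the other 33 were called. The median log2 difference over the 41 probes was -0.021 for OV against embryo-minus-otic tissue, 0.023 against periotic tissue and -0.078 between the non-otic groups. Over all probes these medians were 0.0043, -3.71e-05 and 0.0066.

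**Figure D2:**
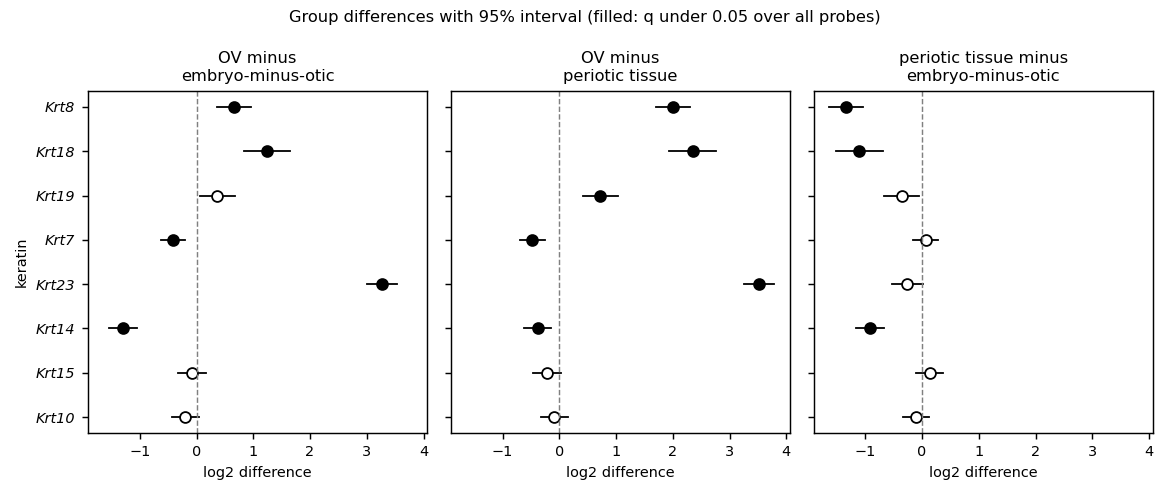
Log2 difference between group means with its 95% interval (horizontal axes) for the 8 keratins above background in a group (rows), in the 3 comparisons (panels), where filled points have *q* under 0.05 over all probes. *Krt8*, *Krt18* and *Krt23* are higher in OV against both non-otic groups, *Krt7* and *Krt14* are lower, and no keratin is called higher in periotic than in embryo-minus-otic tissue.

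The 3 keratins called higher in OV against each non-otic group are shown with the 250 bases that precede their RefSeq start, so that the partners *Krt8* and *Krt18* can be set beside *Krt23*. The build is GRCm38.p6, and the windows lie at chr15:102004343-102004592 on the minus strand, chr15:102027966-102028215 on the plus strand and chr11:99493121-99493370 on the minus strand. Each is printed 5′ to 3′ on the gene's own strand, and capitals mark matches to 1 of 5 motifs searched on both strands.
Krt8 promoter window: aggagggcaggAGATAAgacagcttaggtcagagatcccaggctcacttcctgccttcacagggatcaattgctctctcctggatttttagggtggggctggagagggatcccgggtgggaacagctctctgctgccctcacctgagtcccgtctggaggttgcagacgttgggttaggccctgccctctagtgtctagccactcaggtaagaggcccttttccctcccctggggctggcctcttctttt
Krt18 promoter window: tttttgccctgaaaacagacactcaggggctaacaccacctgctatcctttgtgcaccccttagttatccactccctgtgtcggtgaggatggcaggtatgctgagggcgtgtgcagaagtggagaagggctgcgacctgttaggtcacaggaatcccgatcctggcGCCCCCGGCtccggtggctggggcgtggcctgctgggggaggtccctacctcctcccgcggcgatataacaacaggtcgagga
Krt23 promoter window: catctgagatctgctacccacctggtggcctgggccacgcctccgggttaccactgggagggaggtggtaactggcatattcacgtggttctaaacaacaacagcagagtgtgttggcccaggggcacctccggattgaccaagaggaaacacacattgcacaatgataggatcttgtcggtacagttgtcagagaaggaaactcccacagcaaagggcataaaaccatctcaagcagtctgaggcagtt
The motifs were a TATA box (TATAAA), a GC box (GGGCGG), an AP-2 motif (GCCNNNGGC), an AP-1 motif (TGANTCA) and a GATA motif (AGATAA). The *Krt8* window held a GATA motif 239 bases before the start, which 9.99% of all 32851 windows of this length in the table held. The *Krt18* window held an AP-2 motif 83 bases before the start, as 13.7% of all windows did. The *Krt23* window held none of the 5, so no motif of this search was common to the 3 genes. RefSeq windows were at hand for 23 of the 36 keratin genes, in 24 windows. Of these 24 windows, 10 held a TATA box, 7 a GATA motif, 4 an AP-2 motif, 2 an AP-1 motif and 1 a GC box, where 12.4%, 9.99%, 13.7%, 6.75% and 32.7% of all windows did. The window of *Krt7* held the GC box, at 4 places, and also 2 AP-2 motifs, 1 of which overlapped a GC box, and the window of *Krt10* held a TATA box and a GATA motif. The window of *Krt14* held none. A match is a match of letters only, and binding was not measured.

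Among the simple epithelial keratins, *Krt8*, the type II partner, was above background on every array. Its log2 intensity was 9.93, 9.89 and 9.89 in the 3 OV pools, 8.001, 7.51 and 8.21 in periotic tissue, and 9.40, 9.19 and 9.16 in embryo-minus-otic tissue. The OV pools were highest, the periotic pools lowest, and no group overlapped another. The OV mean of 9.90 ± 0.023 (SD, n = 3) stood 1.58-fold above embryo-minus-otic tissue (log2 difference 0.66, SE 0.14, *q* = 0.00462) and 4.0-fold above periotic tissue (2.00, SE 0.14, *q* = 5.22e-08). Periotic tissue was 2.54-fold lower than embryo-minus-otic tissue (*q* = 1.25e-05).

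*Krt18*, the type I partner of *Krt8*, showed the same order of the groups. The 3 OV pools measured 9.21, 9.25 and 9.40 on the log2 scale, the periotic pools 7.20, 6.43 and 7.18, and the embryo-minus-otic pools 8.42, 7.66 and 8.06. Again the groups did not overlap, although the non-otic pools spread more widely (SD 0.44 in periotic and 0.38 in embryo-minus-otic tissue) than the OV pools (SD 0.10). In OV, *Krt18* was higher than in embryo-minus-otic tissue by 2.36-fold (log2 difference 1.24, SE 0.19, *q* = 3.36e-04) and than in periotic tissue by 5.10-fold (2.35, SE 0.19, *q* = 3.87e-07). It was 2.16-fold lower in periotic than in embryo-minus-otic tissue (*q* = 0.00185).

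The fitted differences of the partners were of unequal size. The log2 difference of OV against embryo-minus-otic tissue was larger for *Krt18* than for *Krt8* by 0.58, and that against periotic tissue was larger by 0.35. Over the normalizations tried and with each array left out, the excess ranged from 0.42 to 0.70 and from 0.29 to 0.65. By an exact two-sided permutation test over pools, p was 0.1 for both, the smallest that 3 against 3 allows, and between the non-otic groups the excess was 0.23 (p = 0.4). This pair was compared after its values were seen, so these are descriptions, and probes can differ in how their signal scales with RNA.

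*Krt19*, a small type I keratin of simple and glandular epithelia, was dim. Log2 intensities were 6.27, 6.71 and 6.94 for the OV pools, 6.07, 5.89 and 5.78 for the periotic pools and 6.34, 6.11 and 6.38 for the embryo-minus-otic pools. It was detected in 3 of 3 OV pools, in no periotic pool and in 2 of 3 embryo-minus-otic pools, and the OV values overlapped those of the latter group. Against periotic tissue *Krt19* was at least 1.37-fold higher in OV (fitted log2 difference 0.73 or 1.65-fold, SE 0.14, *q* = 0.0027), with a fitted 2.51-fold under neqc, a background correction that models the negative controls. For such a bound the dim group is set, array by array, to the lowest intensity of any detected probe, or to the measured value where that is higher. Against embryo-minus-otic tissue the difference was 0.37 (95% interval 0.060 to 0.67, *q* = 0.134), which passed the threshold without OV replicate 1 (0.55, *q* = 0.0093).

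*Krt7*, a type II keratin of ducts and other simple epithelia, ran against *Krt8* and *Krt18*. Its OV pools lay at 6.43, 6.45 and 6.32 (log2 intensity), its periotic pools at 6.93, 6.67 and 7.03 and its embryo-minus-otic pools at 6.91, 6.72 and 6.81. Every OV pool lay below every non-otic pool, and the non-otic groups overlapped each other. The OV mean was 1.33-fold lower than embryo-minus-otic tissue (log2 difference -0.41, SE 0.10, *q* = 0.0136) and 1.39-fold lower than periotic tissue (-0.48, SE 0.10, *q* = 0.00504), and the non-otic groups differed by 0.063 (*q* = 0.859). The call against embryo-minus-otic tissue was lost with median normalization (*q* = 0.101), with no normalization (*q* = 0.153), without OV replicate 3 (*q* = 0.0633) and without embryo-minus-otic replicate 1 (*q* = 0.0519), and the call against periotic tissue was lost with no normalization (*q* = 0.0858). *Krt20*, the remaining probe of this class and a keratin of gut lining, was above background on no array.

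**Figure D3:**
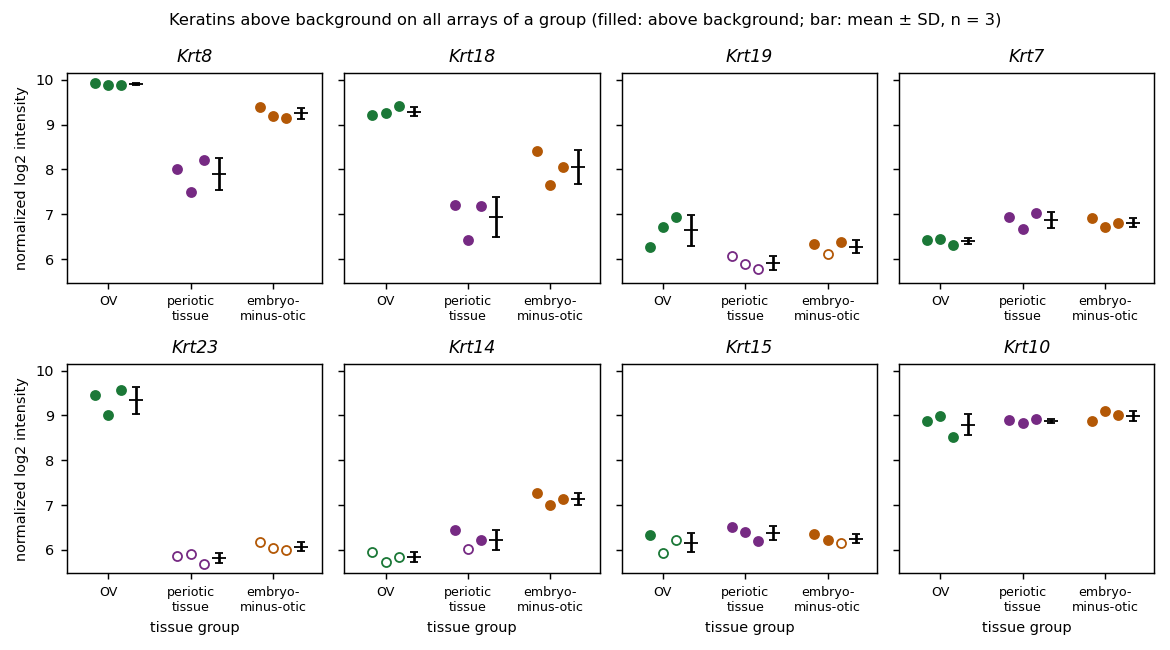
Normalized log2 intensity (vertical axes) of each of the 3 pools per tissue group (points, filled where above background) with the group mean ± SD (bars, n = 3) for the 8 keratins above background in a group (panels). The OV points of *Krt8*, *Krt18* and *Krt23* lie above all others, those of *Krt7* and *Krt14* lie below all others, and the *Krt10* and *Krt15* groups overlap.

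*Krt23*, a type I keratin that belongs to none of the classes above, had the largest difference of the set. The OV pools had log2 intensities of 9.45, 8.999 and 9.57, against 5.86, 5.90 and 5.69 for periotic tissue and 6.18, 6.04 and 5.99 for embryo-minus-otic tissue. Each of the 3 OV pools had a detected signal and none of the 6 non-otic pools did. *Krt23* was therefore at least 8.71-fold higher in OV than in embryo-minus-otic tissue (fitted log2 difference 3.27, SE 0.13, *q* = 2.13e-10) and at least 8.91-fold higher than in periotic tissue (3.52, SE 0.13, *q* = 4.01e-11). The fitted 9.62-fold and 11.5-fold became 21.7-fold and 28.7-fold under neqc. Set against the larger non-otic mean and ordered over all 25697 probes, *Krt23* was 4th in OV, *Krt18* 124th, *Krt8* 395th and *Krt19* 846th. The fitted difference between the non-otic groups, both not above background, was -0.26 (*q* = 0.349).

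Of the stratified epithelial keratins, *Krt14*, the type I keratin of basal cells, was brightest in embryo-minus-otic tissue. The embryo-minus-otic pools had log2 intensities of 7.27, 7.01 and 7.14, the periotic pools 6.45, 6.01 and 6.21, and the OV pools 5.96, 5.73 and 5.84. The groups did not overlap, and *Krt14* was detected in 3 of 3 embryo-minus-otic pools, 2 of 3 periotic pools and no OV pool. It was at least 1.92-fold lower in OV than in embryo-minus-otic tissue (fitted log2 difference -1.30, SE 0.11, *q* = 8.90e-07), with a fitted 2.45-fold that became 4.66-fold under neqc. Periotic tissue was 1.88-fold lower than embryo-minus-otic tissue (*q* = 7.90e-05), or 2.90-fold under neqc. OV was at least 1.02-fold lower than periotic tissue (-0.38, *q* = 0.0450), a call that 8 of 16 alternatives lost. Among these were neqc (*q* = 0.0680) and leaving out OV replicate 2 (*q* = 0.186) or 3 (*q* = 0.112), periotic replicate 1 (*q* = 0.232) or 3 (*q* = 0.0964), or embryo-minus-otic replicate 3 (*q* = 0.0605).

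*Krt15*, a further type I keratin of basal cells, lay close to background in every group. Log2 intensities of 6.33, 5.93 and 6.22 were measured for OV, 6.52, 6.41 and 6.20 for periotic tissue, and 6.35, 6.23 and 6.15 for embryo-minus-otic tissue. All 3 groups overlapped, the probe was detected in 1, 3 and 2 pools in that order, and no comparison was called (*q* = 0.777 and 0.348 for OV against embryo-minus-otic and periotic tissue, and 0.676 between these). *Krt5*, the type II partner of both basal keratins, was above background on no array.

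*Krt10*, the type I keratin of suprabasal epidermis, was above background on every array and was called in no comparison. The OV pools lay at log2 intensities of 8.88, 8.98 and 8.52, the periotic pools at 8.90, 8.83 and 8.91 and the embryo-minus-otic pools at 8.87, 9.09 and 9.01. The groups overlapped in all 3 comparisons. The log2 difference of OV was -0.20 against embryo-minus-otic tissue (95% interval -0.43 to 0.042, *q* = 0.358) and -0.089 against periotic tissue (-0.33 to 0.15, *q* = 0.784). Between the non-otic groups it was -0.11 (-0.34 to 0.13, *q* = 0.751). *Krt1*, its type II partner in epidermis, was above background on no array.

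The other 33 keratin probes, for 28 genes, had log2 intensities between 5.48 and 6.22, with medians of 5.80, 5.78 and 5.79 in OV, periotic and embryo-minus-otic tissue. Of their 297 values, 2 were above background, both in embryo-minus-otic replicate 1. These were *Krt4*, a keratin of mucosal epithelia, at 6.22 and *Krt32*, a hair keratin, at 6.20, and both are named here after their values were seen. None of the 33 was called in limma's test, although 1 *Krt82* probe passed when the prior was given an intensity trend (log2 difference -0.24 for OV against embryo-minus-otic tissue, *q* = 0.0484). The lowest *q* was 0.0782 for OV against embryo-minus-otic tissue, 0.267 against periotic tissue and 0.178 between the non-otic groups, and 3, 0 and 1 probes had an unadjusted p under 0.05. In OV the detected keratins were thus 2 of type II, *Krt7* and *Krt8*, and 4 of type I, *Krt10*, *Krt18*, *Krt19* and *Krt23*.

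Keratin filaments end at desmosomes, which join neighbouring cells, and at hemidesmosomes, which fix cells to the basement membrane. Of 18 probes for 13 desmosome genes, 7 were higher in OV than in embryo-minus-otic tissue and 8 higher than in periotic tissue, or 38.9% and 44.4% where 5.89% and 5.07% of all probes were, and 0 were lower in either. Their median log2 difference was 0.10 and 0.067. Of the 13 genes, 8 were above background on no array (*Dsc1*, *Dsc2*, *Dsc3*, *Dsg1a*, *Dsg3*, *Jup*, *Perp* and *Pkp1*). *Ppl*, which encodes the plaque protein periplakin, was 2.56-fold higher than in embryo-minus-otic tissue (*q* = 1.43e-05) and 2.30-fold higher than in periotic tissue (*q* = 5.03e-05). *Pkp2* (plakophilin 2) was 1.77-fold and 1.98-fold higher (*q* = 0.00292 and 6.03e-04). *Dsp* (desmoplakin, the protein that binds keratin filaments to the desmosome) was 2.58-fold higher than in periotic tissue (*q* = 8.17e-07), with 1.30-fold against embryo-minus-otic tissue (*q* = 0.0575). Like *Krt8* and *Krt18*, *Dsp* was lower in periotic than in embryo-minus-otic tissue (1.99-fold, *q* = 6.56e-05), the only desmosome probe called between these groups.

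Of 30 probes for 6 hemidesmosome genes, 3 were higher in OV than in embryo-minus-otic tissue and 2 higher than in periotic tissue, and 0 were lower in either. At 10% and 6.67% these shares lay near the 5.89% and 5.07% of all probes called higher, and nothing is read from them about the list as a whole. The median log2 difference was 0.043 and 0.0065, and 27 and 28 of the 30 probes were not called. Each gene named below is given by 1 probe, its detected probe with the largest OV difference. *Itgb4*, the integrin subunit whose tail binds the keratin linker plectin, was 1.52-fold and 1.74-fold higher (*q* = 2.97e-04 and 1.80e-05). *Plec*, which encodes plectin, was 1.58-fold higher than in embryo-minus-otic tissue (*q* = 0.00372), with 1.27-fold against periotic tissue (*q* = 0.154).

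The other intermediate filament genes, 24 probes for 16 genes, were lower in OV where they were called. Against embryo-minus-otic tissue 0 were higher and 8 lower, and against periotic tissue 0 were higher and 5 lower, or 33.3% and 20.8% lower where 5.51% and 5.15% of all probes were, with median log2 differences of -0.092 and -0.054. *Nefm*, a neurofilament gene of neurons, was 3.17-fold lower in OV than in embryo-minus-otic tissue and 7.96-fold lower than in periotic tissue (*q* = 9.72e-06 and 1.19e-08). *Vim*, the vimentin gene of mesenchyme and neural progenitors, was 2.46-fold and 4.02-fold lower (*q* = 4.21e-04 and 5.04e-06). *Nes*, the nestin gene of neural progenitors, was 1.60-fold and 4.52-fold lower (*q* = 4.93e-04 and 1.43e-09). *Des*, the desmin gene of muscle, was 4.55-fold lower than in embryo-minus-otic tissue (*q* = 5.10e-09), and its log2 difference from periotic tissue was 0.11 (*q* = 0.746).

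Genes of the cornified envelope, the protein shell of the outermost epidermis, stayed at background but for 1. Of the 10 genes measured, 9 were above background on no array. The exception was *Lor* (loricrin), above background on every array and higher in OV, by 2.34-fold against embryo-minus-otic tissue and 2.31-fold against periotic tissue (*q* = 3.74e-08 and 3.64e-08). The median log2 difference over the 11 probes of the list was -0.011 and 0.0030.

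**Figure D4:**
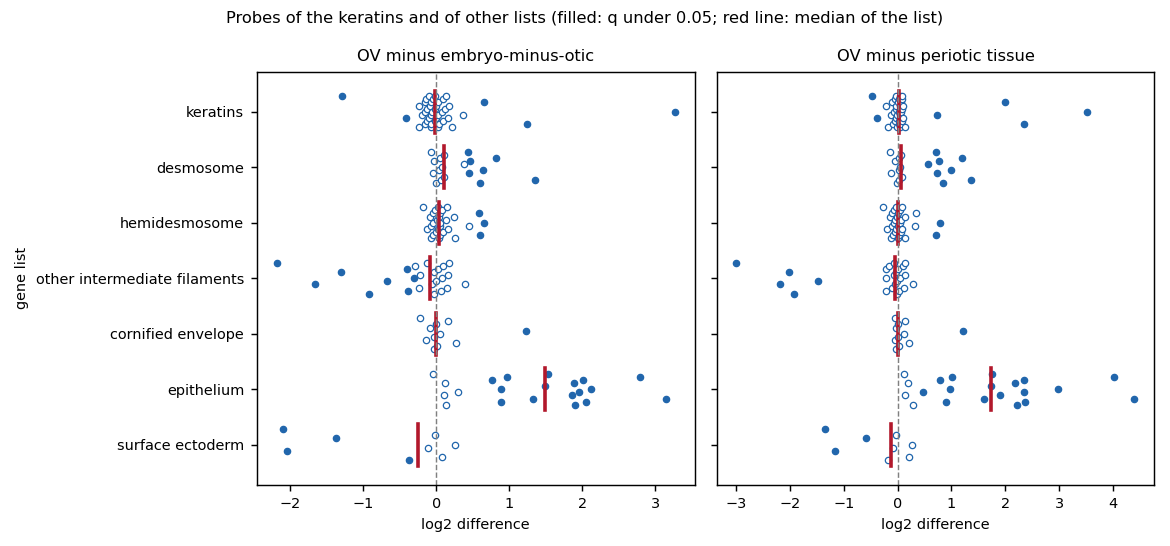
Log2 difference (horizontal axes) of every probe of the keratins and of 6 other gene lists (rows) for OV against embryo-minus-otic tissue (left) and periotic tissue (right), where filled points have *q* under 0.05 over all probes and the red line is the list's median. Most keratin points lie near 0 around a few distant ones, called desmosome points lie above 0, and called points of other intermediate filaments lie below 0.

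Markers of the cell types that the tissues hold were compared in the same way. General markers of epithelium were 21 probes for 14 genes. In OV 16 were higher than in embryo-minus-otic tissue and 17 higher than in periotic tissue, with 0 lower in either. These were 76.2% and 81.0% of the 21, where 5.89% and 5.07% of all probes were higher. In periotic tissue 5 were lower than in embryo-minus-otic tissue, or 23.8% where 2.95% of all probes were. The summed normalized intensity of the 21 per array was 13230 to 13772 in OV, 2456 to 3095 in embryo-minus-otic tissue and 1658 to 1955 in periotic tissue. This sum had the order seen for *Krt8* and *Krt18*, but bright probes weigh most in it. Between the non-otic groups 16 of the 21 were not called, and the median log2 difference was -0.18. *Cdh1*, which encodes E-cadherin, was above background on every array, and *Esrp2*, *Spint1* and *Spint2* were on no array of either non-otic group. In tissue pieces of mixed cells, fewer cells of a type and less RNA per cell cannot be told apart.

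Markers of surface ectoderm were 8 probes for 5 genes. Their called probes and summed intensity had the order of groups seen for *Krt14*, not that of *Krt8* and *Krt18*. Only 3 of these probes were above background on all arrays of a group, all for *Trp63* or *Tfap2c*. Of the 8 probes, 4 were lower in OV than in embryo-minus-otic tissue and 3 lower than in periotic tissue. Between the non-otic groups 3 were lower in periotic tissue, and 0 were higher in any of these comparisons. The shares were 50%, 37.5% and 37.5%, where 5.51%, 5.15% and 2.95% of all probes were lower. The summed intensity of the 8 was 518 to 561 in OV, 690 to 896 in periotic tissue and 1147 to 1247 in embryo-minus-otic tissue. *Trp63*, which encodes the p63 factor that drives *Krt14* in basal cells, was detected in no OV pool and in every non-otic pool. It was at least 3.35-fold lower in OV than in embryo-minus-otic tissue (*q* = 8.01e-09) and at least 2.08-fold lower than in periotic tissue (*q* = 7.69e-07). *Grhl3* and *Sfn* were above background on no array of any group. Unlike *Krt14*, *Ovol1* was detected in OV but in no non-otic pool. That detection held in a part of the OV pools only, and *Ovol1* was not called higher in OV.

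Gut endoderm and liver, which also hold *Krt8* and *Krt18*, were marked by 11 probes for 9 genes. Of these, 7 were lower in OV than in embryo-minus-otic tissue and 4 lower than in periotic tissue, with 0 higher in either. The shares were 63.6% and 36.4%, where 5.51% and 5.15% of all probes were lower. Between the non-otic groups 3 of the 11 were lower in periotic tissue, or 27.3% where 2.95% of all probes were. *Afp* was above background on no array of OV or periotic tissue, and *Alb* on no array of any group. *Foxa2* was above background on a part of the periotic arrays only, and on no array of OV or embryo-minus-otic tissue. Otic vesicle markers, 13 probes for 8 genes, had 9 probes higher and 0 lower in OV against each non-otic group. This was 69.2%, where 5.89% of all probes were higher than in embryo-minus-otic and 5.07% than in periotic tissue. The summed intensity of these markers was 7156 to 7854 in OV, 1107 to 1243 in periotic tissue and 1263 to 1355 in embryo-minus-otic tissue. Of their genes *Hmx3* was above background on no array. Markers of mesenchyme had 8 of 9 probes lower in OV than in embryo-minus-otic tissue and 1 of 9 lower than in periotic tissue (88.9% and 11.1%). Those of neural tube had 2 and 3 of 6 lower (33.3% and 50%), and those of heart muscle 5 and 0 of 6 (83.3% and 0%). Over all probes 5.51% and 5.15% were lower. The part of these markers in the keratin differences was not tested.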

How the data were processed

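Total RNA of 9 tissue pools, 3 per group, was amplified, labelled with biotin and hybridized to 1 array each. The authors deposited for every probe and array an average signal, an intensity that was not normalized between arrays, and a detection p-value. Whether a background was subtracted is not given in the sources used here, and the slide of each array was not analysed here.

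Groups were taken from the labelled tissue. Intensities under 1 were set to 1, put on the log2 scale, quantile normalized over the 9 arrays, and fitted with limma 3.58.1 in R 4.3.3 (lmFit and eBayes) as 1 model of 3 groups. *q* was adjusted by Benjamini-Hochberg over all 25697 probes. Replicates of a group correlated at 0.989 to 0.994 over all probes, and their number limits the precision of every mean. No pair of arrays within a group was identical. The steps were tested on simulated data.

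Named keratins were those above background (detection p under 0.01) on all arrays of a group or with *q* under 0.05 in a comparison. From the other lists up to 4 genes each were eligible, those with the largest OV differences above background. A gene of these lists with more than 1 probe is given by its detected probe with the largest such difference. The keratin set, the lists and the markers were chosen with earlier results of these data known. Where a probe was above background on no array of a group, its fold was given as a bound, with both means taken over normalized log2 values. Names were updated through the RefSeq table of GRCm38.p6 by the array's definition (27 probes) or a synonym (13), and 1, *Krt85*, rests on the definition alone. Promoter windows were the 250 bases before each start in that table, and chromosomes are those of the table. The log2 ratio of *Krt18* to *Krt8* was added after seeing the data.

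Alternatives were median normalization, no normalization, neqc (offset 16), a replicate block, a prior with an intensity trend, fits without the third group, without undetected probes or without 1 array, and a detection p under 0.05.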

Additional observations from a re-analysis of the deposited data

How the results depend on the processing

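The counts of keratin probes higher in OV (3 against embryo-minus-otic and 4 against periotic tissue) and lower in periotic than in embryo-minus-otic tissue (3) were the same under every normalization, fit and filter tried. With 1 array left out, the first ranged from 3 to 4 and the other two stayed at 4 and 3. The 2 probes lower in OV than in embryo-minus-otic tissue became 1 with median normalization and 1 with no normalization, ranged from 1 to 2 with an array left out, and became 3 with an intensity trend in the prior, which added a *Krt82* probe (log2 difference -0.24, *q* = 0.0484) that was above background on no array. The 2 lower than in periotic tissue became 1 with neqc, 1 with median normalization and 0 with no normalization, and ranged from 1 to 2 with an array left out. Apart from the *Krt82* probe, the probes called lower in OV were *Krt7* and *Krt14*. At a detection p under 0.05, 8 keratin probes were above background on all embryo-minus-otic arrays in place of 5. Differences turned sign for *Krt10* in OV against periotic tissue without OV replicate 3 (0.046, range -0.18 to 0.046 with 1 array left out) and in periotic against embryo-minus-otic tissue with median normalization (0.13). They also did so for *Krt15* in OV against embryo-minus-otic tissue without OV replicate 2 (0.032, range -0.17 to 0.032) and for *Krt7* in periotic against embryo-minus-otic tissue without periotic replicate 3 (-0.013, range -0.013 to 0.17), and none of these was called. The cause was not tested. Of 384 values of the 8 named probes over all alternatives, 366 kept direction and side of the threshold, 13 lost a call, 1 gained one and 4 turned sign. neqc raised the fitted folds of dim probes, among them *Krt19* in OV against periotic tissue (2.51-fold in place of 1.65-fold).

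The labels do not say that replicate numbers mark litters, and not every same-numbered pair correlated above 0.1, so the samples were treated as unpaired, though the data hint at a pairing. Same-numbered samples of different groups correlated in their deviations at 0.011 to 0.23, over 0.1 in 5 of 9 pairs, and differently numbered ones at -0.19 to 0.064, over 0.1 in 0 of 18. In 15 of 18 cases an array correlated best with the same number in another group. With the replicate number as a block the counts stayed at 3 higher and 2 lower in OV than in embryo-minus-otic tissue, 4 and 2 against periotic tissue, and 0 and 3 between the non-otic groups.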

Other observations

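A further 10 probes for keratin genes were listed on the array under symbols that do not begin with *Krt* and a digit, 8 symbols in all, among them those for *Krt25*, *Krt33a* and *Krt77*. They were not part of the keratin set described above. None was above background on any array, and none was called in limma's test of any of the 3 comparisons.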
